A study of Mus musculus with 6 samples.

Results

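The genes of the IkB family were examined in splenic B cells after TLR7 stimulation: the classical members Nfkbia, Nfkbib and Nfkbie and the atypical members Nfkbid, Nfkbiz and Bcl3. They were chosen by symbol, and all 6 were found among the 23420 gene symbols of the files. All 6 also passed the filter on low values, a log2 CPM of at least -1 in at least 3 libraries, which left 11844 tested genes. CPM is the read count of a gene divided by the summed count of its library, scaled to a common total. The series held 3 CL097 and 3 unstimulated RNA-seq libraries, numbered 1 to 3 in each group. CL097 is a TLR7 agonist, given at 5 µg/ml for 4 h, and unstimulated cells were cultured for the same time without it. Both groups were bead-purified splenic B cells of TLR9-/- MRL/lpr (MRL.Faslpr) mice aged 5 to 7 weeks with a wild-type TLR7, so the TLR9 deficiency and the Fas lpr mutation were shared by every library. The mice were male according to the methods of the study, and B cells were enriched by removing cells that carry CD43, CD4, CD8, CD11b, CD11c or Gr-1. No TLR9-sufficient cells were analysed here, and a single dose and a single time were compared. The labels name 3 mice without tying a library number to a mouse, so the p-values measure the spread between these libraries.

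NF-kB dimers are held in the cytoplasm of resting cells by classical IkB proteins, which cover the nuclear localization signals of the dimers with their ankyrin repeats. When a Toll-like receptor signals through MyD88, the IkB kinase complex phosphorylates the classical proteins, a ubiquitin ligase marks them, and the proteasome destroys them. The freed dimers enter the nucleus, where Nfkbia is among their first targets, so that a new inhibitor is made while the signal still runs. Atypical IkB proteins are mostly nuclear, are usually made only after stimulation, and bind dimers of p50 or p52 on DNA, where they can raise or lower the transcription of particular genes. In B cells NF-kB is needed for survival, proliferation and antibody responses.

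All 6 genes were called higher in CL097 libraries, and none was called lower. Nfkbiz stood far above the others with a 23.5-fold higher level. Nfkbia was 3.10-fold, Nfkbib 2.63-fold, Bcl3 2.24-fold, Nfkbid 1.84-fold and Nfkbie 1.67-fold higher. A gene was called at an adjusted p under 0.05 (limma, Benjamini-Hochberg over all tested genes) and a log2 fold change over 0.5 in either direction. Calls were common among all tested genes, with 24.0% called higher and 23.6% called lower, and a higher call was shared by 2837 genes in all. For each of the 6 genes every CL097 library also lay above every unstimulated library, which held for 33.4% of all tested genes, while 32.4% had every CL097 library below.

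**Figure D1:**
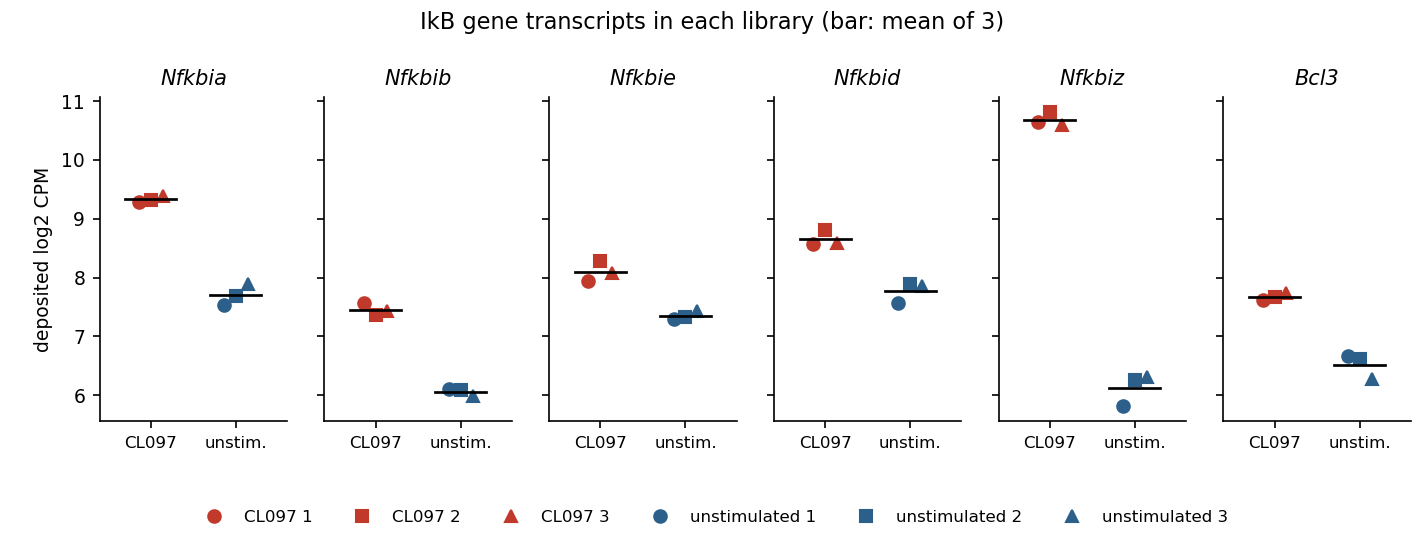
Deposited log2 CPM (vertical axis) of the 6 IkB genes in the 3 CL097 libraries (red, left) and the 3 unstimulated libraries (blue, right), with the shape of a point giving the library number and a bar at each group mean. The groups do not overlap in any of the 6 panels, and the gap between them is widest for Nfkbiz, at 4.28 on the log2 scale.

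NF-kB binds a 10-base DNA consensus, and the start sites of the IkB genes were searched for it because the protein products of these genes restrain or direct NF-kB. RefSeq windows of 250 bases before to 50 bases after a start site (build GRCm38.p6) were used for 5 of the 6 genes, and Nfkbiz had none. A match on either strand was found at 1 start site each of Nfkbia, Nfkbid, Nfkbie and Bcl3, and in no window of Nfkbib. Of all 32851 windows of the same length, 4.51% held a match. A match says only that these letters are present, and no binding was measured. The 4 stretches with a match are given 5′ to 3′ on the strand of the gene, with the matches in capitals, to show where they lie. The Nfkbia stretch is chr12:55492648-55492897 (minus strand), the Nfkbid stretch chr7:30422156-30422405 (plus strand), the Nfkbie stretch chr17:45555450-45555699 (plus strand) and the Bcl3 stretch chr7:19822744-19822993 (minus strand).
Nfkbia: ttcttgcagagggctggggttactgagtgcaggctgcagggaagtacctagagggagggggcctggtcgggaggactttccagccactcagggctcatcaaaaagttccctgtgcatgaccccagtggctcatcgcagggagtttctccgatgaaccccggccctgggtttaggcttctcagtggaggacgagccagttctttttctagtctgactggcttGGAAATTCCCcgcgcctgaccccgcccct
Nfkbid: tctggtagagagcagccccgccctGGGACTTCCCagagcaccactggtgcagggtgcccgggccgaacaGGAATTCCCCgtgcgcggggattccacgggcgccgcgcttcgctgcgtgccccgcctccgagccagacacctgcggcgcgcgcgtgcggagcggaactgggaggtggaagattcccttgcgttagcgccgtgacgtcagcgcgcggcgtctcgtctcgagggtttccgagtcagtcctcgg
Nfkbie: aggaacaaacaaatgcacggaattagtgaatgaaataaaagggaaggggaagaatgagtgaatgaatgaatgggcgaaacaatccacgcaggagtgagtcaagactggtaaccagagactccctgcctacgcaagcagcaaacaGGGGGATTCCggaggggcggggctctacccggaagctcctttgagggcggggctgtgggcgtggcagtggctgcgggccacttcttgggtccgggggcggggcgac
Bcl3: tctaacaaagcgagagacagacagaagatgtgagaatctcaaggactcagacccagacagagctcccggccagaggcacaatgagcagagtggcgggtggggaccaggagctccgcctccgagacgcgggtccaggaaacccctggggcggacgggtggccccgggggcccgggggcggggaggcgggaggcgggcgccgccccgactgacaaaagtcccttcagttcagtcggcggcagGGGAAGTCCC

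Counted from the start site, with the first transcribed base as +1, the match of Nfkbia lay at -29 to -20, close to the start. It was on the opposite strand and reads GGGAATTTCC there. Nfkbid held 2 matches before the 2nd of its 3 listed start sites, at -226 to -217 and, on the opposite strand, at -181 to -172. The first of these, GGGACTTCCC, has the same 10 letters as the match of Bcl3, which lay on the opposite strand just after the start, at +3 to +12. The match of Nfkbie, GGGGGATTCC, lay at -106 to -97.

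Nfkbia (chromosome 12, 55492647 down to 55489410, minus strand, 8 annotated exons) encodes IkBα, the inhibitor that is destroyed and remade fastest and that removes NF-kB from the nucleus. Exon numbers here and below count distinct intervals pooled over all annotated transcripts, so alternative ends of 1 exon count separately. Nfkbia was at 625, 638 and 671 CPM in CL097 libraries 1, 2 and 3, against 185, 205 and 238 CPM in unstimulated libraries 1, 2 and 3. The CL097 values lay close together, and the lowest of them was far above the highest unstimulated value. Nfkbia rose by 1.63 on the log2 scale (SE 0.10, adjusted p = 4.82e-06), or 3.10-fold with a 95% interval of 2.65 to 3.62. Already in unstimulated cells Nfkbia had a mean of 209 ± 26.6 CPM (SD, n = 3), against 645 ± 23.6 CPM with CL097.

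Nfkbib (chromosome 7, 28767512 down to 28758251, minus strand, 12 annotated exons) encodes IkBβ, which binds dimers that contain RelA or c-Rel and is remade more slowly than IkBα. Its levels were 189, 165 and 174 CPM in CL097 libraries and 69.3, 67.8 and 63.3 CPM in unstimulated libraries. The 3 unstimulated libraries were nearly level, and all 3 CL097 libraries were well above them. Nfkbib rose by 1.40 on the log2 scale (SE 0.08, adjusted p = 4.27e-06), 2.63-fold with a 95% interval of 2.31 to 3.00. Whether reads were counted by strand is not given in the sources used here, and 2 genes on the opposite strand share exonic bases with Nfkbib. Ccer2 shares 14.5% of them and was not among the tested genes. Sirt2 shares 1.94% and moved the other way, at 26.1 CPM in CL097 and 39.7 CPM in unstimulated libraries (log2 fold change -0.60, adjusted p = 0.00123).

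Nfkbie (chromosome 17, 45555703 to 45563169, plus strand, 11 annotated exons) encodes IkBε, which is prominent in lymphocytes and restrains c-Rel dimers in mouse B cells. It stood at 246, 310 and 270 CPM in CL097 libraries, against 157, 161 and 174 CPM in unstimulated libraries. Library 2 was the highest of the CL097 group, and the groups were 0.50 apart on the log2 scale at their nearest. Of the 6 genes Nfkbie had the smallest change, a rise of 0.74 on the log2 scale (SE 0.10, adjusted p = 0.000289) or 1.67-fold (95% interval 1.43 to 1.95). Of all tested genes, 20.8% had a larger log2 fold change.

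Nfkbid (chromosome 7, 30421732 to 30428746, plus strand, 18 annotated exons) encodes IkBNS, a nuclear protein that mice need for B-1 cells and for antibody responses made without T cell help. Its levels were 380, 449 and 383 CPM in CL097 libraries and 190, 238 and 232 CPM in unstimulated libraries. In both groups library 2 was the highest, and in both library 1 was the lowest. Nfkbid rose by 0.88 on the log2 scale (SE 0.11, adjusted p = 0.000209), 1.84-fold with a 95% interval of 1.55 to 2.19. Nfkbid was thus well expressed before stimulation, at a mean of 220 ± 25.8 CPM (SD, n = 3), and at 404 ± 39.0 CPM after it.

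Nfkbiz (chromosome 16, 55838899 down to 55811375, minus strand, 20 annotated exons) encodes IkBζ, which is made after Toll-like receptor signals and in mouse macrophages is needed to transcribe Il6 and other late genes. It reached 1597, 1803 and 1537 CPM in CL097 libraries, against 56.1, 76.9 and 79.1 CPM in unstimulated libraries. All 3 CL097 libraries lay far above all 3 unstimulated libraries, with the groups 4.28 apart on the log2 scale at their nearest. Its rise was 4.55 on the log2 scale (SE 0.14, adjusted p = 8.35e-07), 23.5-fold with a 95% interval of 18.9 to 29.2. By log2 fold change it was number 14 of 11844 tested genes, with only 0.11% of them above it. Unstimulated library 1 had the lowest level, and number 1 therefore showed the largest difference, 4.83, against 4.55 in number 2 and 4.28 in number 3.

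Bcl3 (chromosome 7, 19822770 down to 19808462, minus strand, 17 annotated exons) encodes a nuclear protein that binds dimers of p50 or p52 and was first found at a chromosome break in human B cell leukaemia. It was at 197, 203 and 214 CPM in CL097 libraries and at 101, 97.9 and 77.4 CPM in unstimulated libraries. CL097 library 3 was the highest of its group and unstimulated library 3 the lowest of its own, so the difference was widest in number 3. Bcl3 rose by 1.16 on the log2 scale (SE 0.11, adjusted p = 4.79e-05), 2.24-fold with a 95% interval of 1.88 to 2.66. An antisense gene, Gm16175, which was not among the tested genes, shares 6.51% of the exonic bases of Bcl3.

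The 6 genes were then set in order by their mean CL097 minus unstimulated difference. Nfkbiz was highest on average, followed by Nfkbia, Nfkbib, Bcl3, Nfkbid and Nfkbie. Nfkbiz, Nfkbia and then either Nfkbib or Bcl3 led in each library number, and the order of the other genes varied between numbers. Of the 15 pairs of genes, 12 had differences that did not overlap over the 3 numbers. The 3 pairs that overlapped were neighbours in the order, namely Nfkbib with Bcl3, Bcl3 with Nfkbid, and Nfkbid with Nfkbie. Nfkbiz exceeded Nfkbia by 3.07, 2.92 and 2.78 in numbers 1, 2 and 3, a mean of 2.92 ± 0.15 (SD, n = 3). Nfkbia exceeded Nfkbib by 0.31, 0.35 and 0.04, so that these neighbours were nearly equal in number 3.

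Whether a pair of genes changed unequally was tested on their log2 ratio, with an exact two-sided permutation test of 3 against 3 libraries. This test does not use the library numbers and cannot give a p below 0.1, and 11 of the 15 pairs reached that value (adjusted p = 0.136 over the 15 pairs by the Benjamini-Hochberg method). At this size the test could not pass 0.05 for any pair, so it says nothing for or against the order, and the differences within numbers are given as a description. The log2 ratio of Nfkbiz to Nfkbia was 1.35, 1.50 and 1.20 in CL097 libraries 1 to 3, and -1.72, -1.42 and -1.59 in unstimulated libraries 1 to 3. Every CL097 ratio thus lay above every unstimulated ratio.

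**Figure D2:**
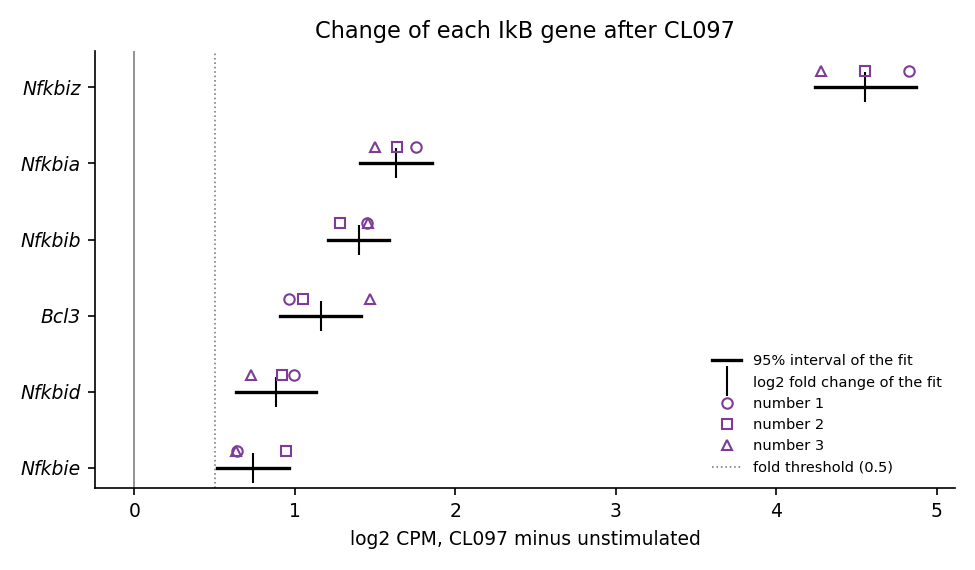
Difference in log2 CPM between CL097 and unstimulated libraries (horizontal axis) for the 6 IkB genes, largest change at the top. Symbols are the differences of numbers 1, 2 and 3, the vertical tick is the log2 fold change and the horizontal line its 95% interval from limma. Nfkbiz, at 4.55, lies apart from the other 5 genes, which run between 0.74 and 1.63.

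Against all tested genes, 5.18% had a larger log2 fold change than Nfkbia, 7.68% than Nfkbib, 11.2% than Bcl3 and 17.2% than Nfkbid. The median of all tested genes was 0.002. Except for Nfkbiz, the IkB genes thus lay on the upper slope of the distribution and not at its end.

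**Figure D3:**
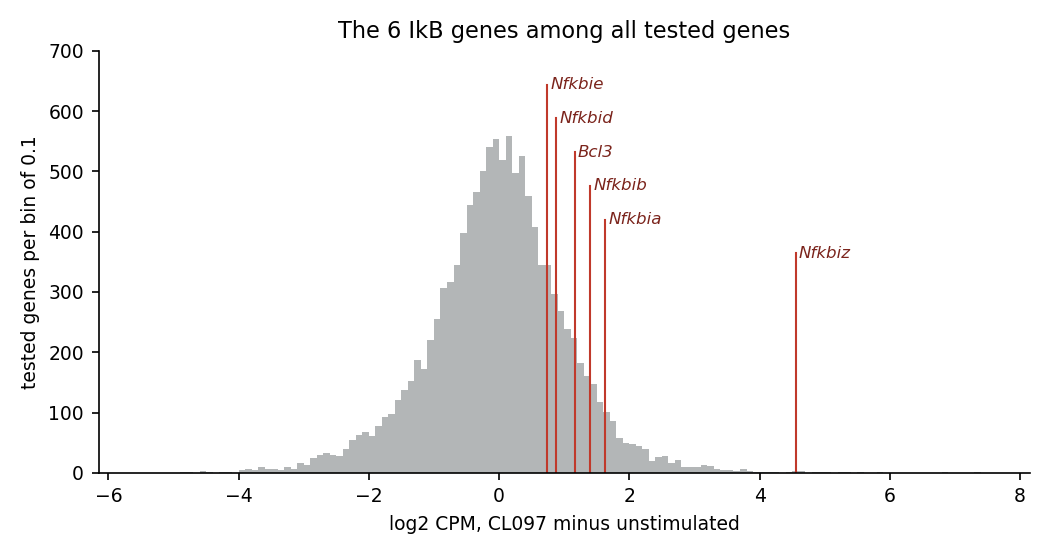
Number of tested genes (vertical axis, bins of 0.1) by log2 fold change, CL097 minus unstimulated (horizontal axis), with a red line, whose height carries no value, at each IkB gene. The lines of 5 genes fall on the right slope of the distribution between 0.74 and 1.63, and the line of Nfkbiz stands at 4.55, where few genes lie.

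To set levels of different genes side by side, CPM was divided by the length of the union of each gene's exons in kilobases. On this scale the 6 genes summed to 1116, 1207 and 1142 CPM per kilobase in CL097 libraries, against 332, 368 and 380 CPM per kilobase in unstimulated libraries. In CL097 libraries Nfkbia was the most abundant at 400.5 ± 14.6 CPM per kilobase (SD, n = 3), followed by Nfkbiz at 328 ± 27.8 and Nfkbid at 172 ± 16.6. Nfkbie, Bcl3 and Nfkbib came last, at 90.4, 82.7 and 81.2 CPM per kilobase, with each neighbour within the spread of the next. In unstimulated libraries the order was Nfkbia at 130 ± 16.5 CPM per kilobase, Nfkbid at 93.7 ± 11.0 and Nfkbie at 53.9 ± 2.83. Bcl3 at 37.2 and Nfkbib at 30.8 overlapped in range, and Nfkbiz was last at 14.1 ± 2.52 CPM per kilobase. With the length of the longest transcript, Bcl3 instead lay above Nfkbie in each CL097 library, at 111 ± 4.58 against 91.5 ± 10.8 CPM per kilobase.

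Nfkbiz made up 28.4% ± 1.47 of the sum over the union of exons in CL097 libraries and 3.90% ± 0.454 in unstimulated libraries (SD, n = 3). The share of Nfkbia was 34.7% ± 1.83 in CL097 and 36.1% ± 2.45 in unstimulated libraries, and these ranges overlapped. Nfkbid, although called higher, had a smaller share with CL097, 14.9% ± 0.843, against 26.0% ± 1.55 in unstimulated libraries. The share of Nfkbie was 7.81% ± 0.605 with CL097 and 15.0% ± 0.609 without, and that of Bcl3 was 7.17% ± 0.390 with CL097 and 10.4% ± 2.06 without. Nfkbib had 7.05% ± 0.761 with CL097 and 8.61% ± 0.975 without, and its ranges overlapped. The shares of the 6 genes sum to the whole in each library, so a larger share of Nfkbiz makes the others smaller. With the length of the longest transcript in place of all exons, Nfkbia and Nfkbiz had 31.6% and 30.9% of the sum in CL097 libraries, and their ranges overlapped.

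The atypical genes together had 583 ± 43.2 CPM per kilobase in CL097 libraries and 145 ± 11.5 in unstimulated libraries (SD, n = 3). The classical genes together had 572 ± 14.7 CPM per kilobase in CL097 libraries and 215 ± 17.9 in unstimulated libraries. The ratio of atypical to classical levels was 1.01, 1.10 and 0.950 in CL097 libraries and 0.671, 0.738 and 0.623 in unstimulated libraries. Without Nfkbiz that ratio was lower with CL097, at 0.446 ± 0.0266, than in unstimulated libraries, at 0.612 ± 0.0550. The direction of the difference in this ratio thus depended on Nfkbiz. The ratio was taken over the union of exons only, and its size depends on the length used. With the longest transcript the CL097 means were 198, 400 and 111 CPM per kilobase for Nfkbid, Nfkbiz and Bcl3. Those of Nfkbia, Nfkbib and Nfkbie were 409, 85.4 and 91.5 CPM per kilobase.

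**Figure D4:**
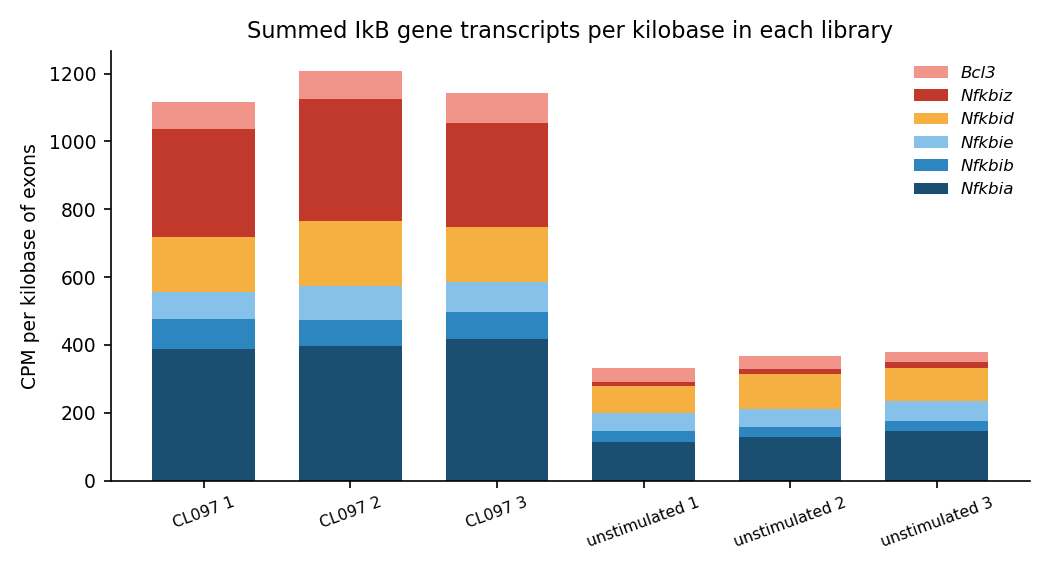
Summed level of the 6 IkB genes in CPM per kilobase of exons (vertical axis) in each of the 3 CL097 and 3 unstimulated libraries, with classical genes in blue and atypical genes in yellow and reds. The bars reach 1116 to 1207 with CL097 and 332 to 380 without, and the Nfkbiz segment is a thin band in the unstimulated bars.

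The NF-kB subunits are the proteins that IkB proteins bind. Of 5 subunit genes, 2 rose, none fell and 3 missed the call, where 24.0% of all tested genes were called higher and 23.6% lower. Their median was 0.13 against 0.002 for all tested genes, and at an unadjusted p under 0.05 in limma 2 were higher and 0 lower. The 2 that rose encode the precursors p105 and p100, which carry IkB-like ankyrin repeats of their own until they are processed to p50 and p52. Nfkb1 was at 2210 ± 111 CPM with CL097 and 740.2 ± 21.6 CPM without (log2 fold change 1.58, SE 0.07, adjusted p = 1.69e-06). Nfkb2 was at 528 ± 35.4 CPM with CL097 and 316 ± 17.6 CPM without (log2 fold change 0.74, adjusted p = 9.38e-05). For the genes of the transactivating subunits the values were 0.11 for Rel (adjusted p = 0.278), 0.05 for Rela (adjusted p = 0.653) and 0.13 for Relb (adjusted p = 0.231), and none of the 3 was called.

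Genes for IkB kinases and related kinases, for their activators and for the IkB ubiquitin ligase were read next. Of 10 genes for IkB kinases and their activators, 1 rose, 2 fell and 7 missed the call (median -0.01). At an unadjusted p under 0.05 in limma, 3 of the 10 were higher and 4 lower. Among all tested genes 24.0% were called higher and 23.6% lower, and these lists are too short to be set apart from those shares. Ikbke, a kinase related to the classical IkB kinases, rose to 18.4 ± 2.13 CPM with CL097, against 7.79 ± 2.31 CPM without (log2 fold change 1.28, adjusted p = 0.00158). The 2 that fell, named after their values were seen, were Map3k14 (log2 fold change -0.93, adjusted p = 0.000120), the kinase of the non-canonical pathway, and Ikbkg (-0.82, adjusted p = 0.000212), the regulatory subunit of the kinase complex. Of 7 genes for the IkB ubiquitin ligase and its E2 enzymes, 0 were called higher and 1 was called lower. That gene was Btrc, which encodes the β-TrCP subunit that recognizes phosphorylated IkB, at 25.7 ± 5.66 CPM with CL097 and 53.6 ± 7.87 CPM without (log2 fold change -1.07, adjusted p = 0.00134). At an unadjusted p under 0.05 in limma, 4 of the 7 were higher and 2 lower. The 4 higher genes missed only the fold threshold, at log2 fold changes of 0.23 to 0.37 (adjusted p of 0.00334 to 0.0496). Besides Btrc, the other lower gene also missed only that threshold (-0.46, adjusted p = 0.00380). Neither kappaB-Ras gene, whose products bind IkBβ, was called (limma, 1 of 2 at an unadjusted p under 0.05, higher).

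Around Nfkbiz itself, transcripts that control it or need it were also read. Of 3 genes whose products promote decay of the Nfkbiz mRNA, Zc3h12a, which encodes the RNase Regnase-1, rose to 170 ± 12.5 CPM with CL097, against 73.4 ± 12.3 CPM without (log2 fold change 1.22, adjusted p = 8.70e-05). The other 2 were not called, and 1 of them, at -0.34 (adjusted p = 0.0127), missed only the fold threshold. Of 5 genes that need IkBζ in mouse macrophages, 3 passed the filter on low values. Il12b, which encodes the p40 chain shared by IL-12 and IL-23, had the largest change, at 121 ± 20.4 CPM with CL097 and 1.04 ± 0.243 CPM without (log2 fold change 6.88, adjusted p = 8.66e-07). Il6 was also called higher, at 76.1 ± 25.9 CPM with CL097 and 1.44 ± 0.899 CPM without. Lcn2, a siderophore-binding protein gene, passed the filter only through its CL097 libraries (log2 CPM of 1.09, 1.79 and 2.86, against -2.96, -1.81 and -1.07 in unstimulated libraries), so its higher call was set in part by the filter. Il6 and Lcn2 are named after their values were seen. Csf2 and Csf3 did not pass the filter. Among all tested genes 24.0% were called higher and 23.6% lower, and both lists are too short to be set apart from those shares.

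**Figure D5:**
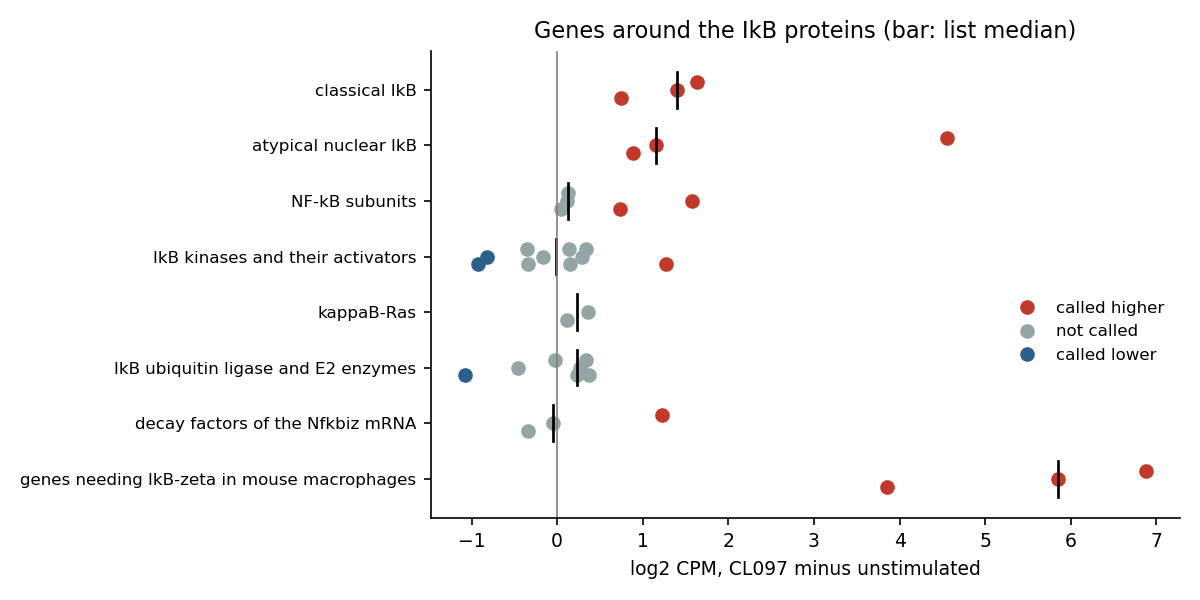
Log2 fold change, CL097 minus unstimulated (horizontal axis), of each tested gene in the lists around the IkB proteins (rows), coloured by its call, with a bar at each list median; the lowest row includes Lcn2, which passed the filter through its CL097 libraries alone. Each of the 6 IkB genes was called higher, and most kinase and ligase genes lie within 0.5 of 0 and were not called. Of all tested genes 24.0% were called higher and 23.6% lower.

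For each IkB gene the 3 genes of nearest pattern were taken, by the root mean square (RMS) difference of log2 CPM over the 6 libraries after each gene's own mean was removed, among 11056 genes that averaged 1 CPM or more. Nfkbib had the nearest neighbours, Ddx56, Ftsj3 and Zfp828, at RMS differences of 0.03 to 0.04. Nfkbia was nearest to Cd44, Aen and Naa25 (0.05 to 0.07). Nfkbid was nearest to BC027231, Rasal1 and Prdm15 (0.05 to 0.06), and Nfkbie to Irf2bp2, Bcar3 and Fam120c (0.05 to 0.07). Bcl3 was nearest to Nr4a1, Ttll12 and Ttll4 (0.05 to 0.07). Nfkbiz had no such near neighbour, and Serpinb9b, Batf and Rhbdl3 followed it at 0.24, 0.29 and 0.31. The RMS difference includes the size of the change. Since Nfkbiz was number 14 of 11844 by log2 fold change, few genes could lie near it on this measure. No IkB gene was among the 3 nearest of another.

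The libraries held B cell transcripts throughout: 6 marker genes summed to between 2339 and 2838 CPM in CL097 libraries and to between 5812 and 6671 CPM in unstimulated libraries, with 4 of the 6 called lower. In such bulk samples fewer cells of a type and less RNA per cell cannot be told apart. Of 8 markers of monocytes and macrophages, which also make Nfkbia and Nfkbiz, 7 were in the files. They summed to 64.2, 132 and 238 CPM in CL097 libraries 1 to 3. In unstimulated libraries 1 to 3 they summed to 93.8, 265 and 436 CPM, so the sum was lower with CL097 in each number. Of these 7 genes 0 were called higher and 0 lower. Lyz2, Csf1r, Cd14 and C1qc were lower with CL097 in each number. Itgam was higher with CL097 in numbers 1 and 3 and equal in number 2. C1qa was higher with CL097 only in number 1, and C1qb only in number 3. The 5 dendritic cell markers summed to 46.6 to 60.7 CPM with CL097 and 14.3 to 15.0 CPM without, and 1 of them, Zbtb46, was called higher. Zbtb46 had 58.3, 43.1 and 41.6 CPM in CL097 libraries and 10.1, 7.81 and 6.73 CPM in unstimulated libraries. Itgax had 1.82, 1.95 and 4.12 CPM in CL097 libraries and 4.28, 4.27 and 5.07 CPM in unstimulated libraries. Siglech, which marks plasmacytoid dendritic cells, had at most 1.44 CPM with CL097 and 1.74 CPM without, and Clec9a and Xcr1, which mark the cDC1 subset, were under 1 CPM in every library. T cell markers summed to at most 4.32 CPM with CL097 and 2.97 CPM without. Of these 5 genes 2 passed the filter, and 1, Cd8a, was called higher. Cd8a had 1.17, 2.19 and 1.84 CPM in CL097 libraries and 0.0384, 0.455 and 0.351 CPM in unstimulated libraries. It passed the filter only through its CL097 libraries, so its higher call was set in part by the filter. Cd4 was higher with CL097 in each number and Cd3e lower in each. Cd3d, Cd3e and Cd3g were under 1 CPM in every library. Neutrophil markers summed to 12.8 to 39.2 CPM with CL097 and 23.8 to 58.0 CPM without, and NK markers to at most 2.03 CPM with CL097 and 0.897 CPM without. Of 3 plasma cell markers 2 were in the files, and they summed to 19.1 to 31.3 CPM with CL097 and 50.6 to 78.9 CPM without. Sdc1 was called lower, at 5.59, 7.22 and 9.20 CPM with CL097 and 37.5, 51.1 and 56.7 CPM without. Prdm1 was not called, at 13.5, 19.9 and 22.1 CPM with CL097 and 13.2, 16.5 and 22.2 CPM without. The part of these cells in the IkB values was not tested.

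Libraries of number 1 stood apart in both groups. Erythroid markers summed to 23.6 CPM in CL097 library 1, against 508 and 720 CPM in CL097 libraries 2 and 3, and to 17.2 CPM in unstimulated library 1, against 473 and 538 CPM in unstimulated libraries 2 and 3. With number 1 left out of both groups all 6 IkB genes were still called higher in limma, at log2 fold changes of 4.42 for Nfkbiz, 1.57 for Nfkbia, 1.37 for Nfkbib, 1.26 for Bcl3, 0.82 for Nfkbid and 0.79 for Nfkbie. The order of the 6 genes was the same.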

How the data were processed

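RNA-seq was done on 3 CL097 and 3 unstimulated B cell libraries. Per the submitters' processing notes and the study's methods, reads were checked with FastQC 0.11.7, trimmed with Trim Galore 0.6.5, aligned with STAR 2.6.1a to mm10 and counted with featureCounts (Subread 2.0.1). The authors quantile-normalized the counts within voom, and the deposited values are log2 CPM. For the annotation and the use of strand, no statement was found (not given in the sources used here). Because the libraries were quantile-normalized to each other, changes are relative to other genes and total RNA per cell was not measured. Values summed to 991008 to 999204 CPM per library, and 10906 to 10997 genes reached 1 CPM. Read counts were not recovered, so depth is unknown and no counting interval is given. Libraries of the same number also shared 2655 to 3108 exactly equal values of 17935 varying genes, against 347 to 396 for different numbers. Such a shared shift alters the spread within a group.

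A linear model was fitted per gene in limma 3.58.1 (R 4.3.3) to the deposited log2 values of all 6 libraries, with the group as the only term, moderated variances with a mean-variance trend and no pseudocount. P-values were two-sided and adjusted by the Benjamini-Hochberg method over 11844 genes. The fit was tested on simulated data first. Folds were obtained by raising 2 to the log2 fold change. Coordinates and exons came from GENCODE M21 on GRCm38 (equal to mm10), counted from 1, and promoter windows from RefSeq (GRCm38.p6). The 6 genes and all lists were chosen with earlier results of these data known. Named were the 6 genes, the NF-kB subunits, the called gene of largest change in each list, and the 3 genes nearest in pattern to each of the 6. Deviations from the group means correlated across genes between libraries of the same number (0.568, 0.326 and 0.458 for numbers 1, 2 and 3), all over 0.1, so the number could be used to pair libraries. It entered only the alternative fit with a replicate block, and the SEs, intervals and p-values in the text are unpaired. The labels do not state this pairing, and the shared shift enters these correlations. Alternatives were the replicate block, other filters, a pseudocount, other variance settings, another gene length and leaving out libraries.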

Additional observations from a re-analysis of the deposited data

How the results depend on the processing

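Under each of 16 alternatives all 6 IkB genes were called higher by limma. Their log2 fold changes ran from 4.40 to 4.69 for Nfkbiz, 1.55 to 1.73 for Nfkbia, 1.34 to 1.45 for Nfkbib, 1.01 to 1.26 for Bcl3, 0.78 to 0.96 for Nfkbid and 0.64 to 0.82 for Nfkbie. The highest adjusted p was 0.00782, for Nfkbid. With the replicate number as a block, 3064 genes were called higher and 3057 lower, and the block changed no call of an IkB gene. Rela, which was not called, reversed to -0.041 without unstimulated replicate 3 and to -0.033 without replicate 3 in both groups, and it ran from -0.041 to 0.11 with a single library left out and reached 0.121 without replicate 1 in both groups. With a log2 CPM of at least 0 required in all 6 libraries, 0 of the genes that need IkBζ were called, because none passed that filter. With no filter 4 of the 5 were called higher. These 4 include Csf2 or Csf3, which did not pass the main filter, so that call rests on values near the floor. A second ligase gene was called lower, 2 in all, without unstimulated replicate 2, without CL097 replicate 1 and without replicate 1 in both groups. With the longest transcript as length, the shares of the summed level were 7.06% for Nfkbie and 8.56% for Bcl3 in CL097 libraries, and 33.5%, 13.9% and 12.7% for Nfkbia, Nfkbie and Bcl3 in unstimulated libraries. Since depth is unknown, the counting error of single values could not be given, and 3 libraries a group limit any exact test to p = 0.1.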
